A study of Mus musculus with 12 samples.

Results

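The replication-dependent histone genes are described here in marginal zone (MZ) and follicular (FO) B cells of mice with and without Zbtb24. Members were all protein-coding genes of the Gencode M21 mouse annotation whose symbol starts with Hist1h, Hist2h, Hist3h or Hist4h and whose read counts summed to 100 or more over the 12 libraries. Beside their names, members were thus selected on a measured value, the count summed over all libraries, which takes no account of the groups. Of 70 annotated genes with such symbols, 67 were protein coding and 56 passed, among 46078 gene rows in all. The 56 comprise 6 genes for the linker histone H1, 14 for H2A, 13 for H2B, 10 for H3 and 13 for H4. The Hist1 cluster on chromosome 13 holds 48 of them, the Hist2 cluster on chromosome 3 holds 5, the Hist3 cluster on chromosome 11 holds 2, and Hist4h4 lies on chromosome 6. Just inside the threshold were Hist1h2br with a summed count of 109 and the testis linker histone gene Hist1h1t with 284. Just outside were Hist1h2bq with 12 and Hist1h2ao with 9, and 7 more genes had 0 counts in every library. Hist1h2bm and Hist1h2bh were not analysed here.

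The libraries come from spleens of C57BL/6 mice 8 to 12 weeks old, with 3 libraries in each of 4 groups: MZ CKO, MZ Control, FO CKO and FO Control. CKO mice carried the VAVcre transgene, in which a promoter active in blood-forming cells drives Cre recombinase, together with the conditional Zbtb24 allele, and their genotype is labelled Zbtb24-/-. Control mice carried VAVcre alone, so all groups share Cre, and they are labelled WT. The labels give no sex, and Cre acted in all blood-forming cells, so an effect that starts before the B cell stage is included. Replicate 1, 2 and 3 were mice 1512, 1514 and 2002 for CKO and mice 1505, 1507 and 2003 for Control, and each number occurs on 1 MZ and 1 FO library. These labels are the ground for treating such a pair of libraries as 1 mouse.

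Histones package DNA into nucleosomes: H2A, H2B, H3 and H4 form the core around which DNA is wound, and H1 binds the linker DNA where it enters and leaves. Replication-dependent histone genes are transcribed mainly in S phase, when new DNA must be packaged, and their messenger RNAs usually end in a conserved stem-loop in place of a poly(A) tail. The stem-loop binding protein Slbp attaches there and guides processing, export and decay of the transcript. Replication-independent variants, such as the H3.3 genes H3f3a and H3f3b, are made throughout the cell cycle as polyadenylated messages. FO and MZ B cells of an unchallenged spleen are mostly resting, so messages of replication-dependent histones are usually low in them.

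The stem-loop is shown because it sets these genes apart from nearly all others and because the library kit bears on transcripts that end in it. A perfect stem of 6 base pairs around a 4-base loop, opening with GG, closing with CC, with TT at bases 6 and 7, T at base 9 and A at base 11, was searched on the transcript strand and found after the stop codon of 40 of the 56 members. It was found in 15 of 21695 other protein-coding genes, or 0.0691%. It began 22 to 55 bases after the stop codon, with a median of 32. For 12 of the 16 members without a match, the annotated transcript ends within 10 bases of the stop codon, so the search had almost no sequence to read. The 8 distinct sequences, read from Gencode M21 transcripts (GRCm38), are given 5′ to 3′ with the pairing stem in capitals:
20 members of the H1, H2A, H2B and H3 classes: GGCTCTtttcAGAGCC
7 H4 members, Hist1h4c, Hist1h4d, Hist1h4f, Hist1h4h, Hist1h4m, Hist1h4n and Hist4h4: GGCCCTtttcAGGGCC
6 members, Hist1h1t, Hist1h2bb, Hist1h2bk, Hist1h3c, Hist1h3e and Hist1h3f: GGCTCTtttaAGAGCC
Hist1h4b and Hist1h4j: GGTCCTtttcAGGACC
Hist1h4i and Hist2h4: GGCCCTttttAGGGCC
Hist1h3g: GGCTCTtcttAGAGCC
Hist1h4a: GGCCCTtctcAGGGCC
Hist2h2ac: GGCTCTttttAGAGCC

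Only H4 genes had stems other than the GGCTCT and AGAGCC pair. The poly(A) signal AATAAA was found in the last 50 bases of an annotated transcript of 12 members, 10 of which also had the stem-loop, against 65.9% of the other protein-coding genes. These matches describe the annotation and say nothing of which ends were used in these cells.

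RefSeq promoter sequences (GRCm38.p6) matched 51 members, and the 250 bases upstream of the start were searched on both strands for 4 motifs that are known from histone promoters. CCAAT was present in 41 of the 51, against 33.8% of 32851 promoters of all genes, and 34 held it 2 or more times, against 10.1%. By class, CCAAT was found in 6 of 6 H1, 14 of 14 H2A, 11 of 11 H2B, 7 of 8 H3 and 3 of 12 H4 promoters. TATAAA was present in 27 of 51, against 12.4% of all promoters. The octamer ATTTGCAT occurred in 6 H2A and 3 H2B promoters, 9 of 51 in all, against 1.6%. AAACACA, the H1 box, occurred in 5 of the 6 H1 promoters and in 1 H2A promoter, against 6.25% of all promoters. A match is only a match of letters, and none of the 4 motifs overlaps another in the promoters printed here.

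Of these promoters, those of 3 members are shown: an H1 gene with the H1 box, an H2B gene with the octamer, and the H4 gene with the largest called difference between subsets. Motif matches on either strand are in capitals:
Hist1h1e, chr13:23622559-23622808, minus strand: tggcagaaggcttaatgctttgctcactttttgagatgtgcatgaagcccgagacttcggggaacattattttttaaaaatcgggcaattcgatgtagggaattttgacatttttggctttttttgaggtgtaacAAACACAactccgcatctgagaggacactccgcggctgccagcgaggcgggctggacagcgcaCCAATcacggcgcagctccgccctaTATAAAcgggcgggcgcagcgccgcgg
Hist1h2bb, chr13:23746484-23746733, plus strand: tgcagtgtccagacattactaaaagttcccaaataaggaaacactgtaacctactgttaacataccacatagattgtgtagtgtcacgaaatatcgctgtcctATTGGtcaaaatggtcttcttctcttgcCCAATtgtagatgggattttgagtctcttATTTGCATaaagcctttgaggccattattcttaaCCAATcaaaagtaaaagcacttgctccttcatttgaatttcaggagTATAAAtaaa
Hist1h4f, chr13:23551669-23551918, minus strand: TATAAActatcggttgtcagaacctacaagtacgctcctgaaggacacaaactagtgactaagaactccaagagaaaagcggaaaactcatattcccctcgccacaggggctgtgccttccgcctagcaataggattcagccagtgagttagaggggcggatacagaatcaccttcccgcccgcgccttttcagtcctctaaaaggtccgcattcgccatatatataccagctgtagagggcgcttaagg

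The library sizes ranged from 36340116 to 44629250 gene counts. The targeted gene was lower in each CKO library than in each control library of its subset. Zbtb24 had 46.4, 41.8 and 41.9 CPM (read counts scaled to a common library size, by TMM over the 12 libraries) in MZ CKO against 49.1, 53.0 and 54.4 in MZ Control, and 48.3, 46.9 and 50.04 in FO CKO against 62.5, 60.8 and 60.8 in FO Control. Cdca7, another gene mutated in ICF syndrome, had at most 5.37 CPM in any CKO library and at least 31.7 CPM in any control library. The subset labels fit the markers: all 9 MZ markers were called higher in MZ than in FO libraries in both genotypes, and the FO marker Fcer2a (CD23) was lower by log2 -3.00 in controls. Markers of T cells and neutrophils were lower in the MZ than in the FO library of each mouse, with summed CPM ratios of 0.485 to 0.75 for T cells and 0.489 to 0.725 for neutrophils.

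Together the 56 members made up 0.169% to 0.362% of the gene counts of a library. Their summed level was 2165, 3705 and 1921 CPM in MZ CKO (replicates 1 to 3), 1864, 2701 and 2063 CPM in MZ Control, 1639, 3126 and 1810 CPM in FO CKO, and 1898, 2649 and 1915 CPM in FO Control. The groups overlapped, and in each of them the replicate 2 library was the highest. The means were 2597 ± 967 CPM in MZ CKO against 2209 ± 437 in MZ Control, and 2192 ± 814 in FO CKO against 2154 ± 429 in FO Control (SD, n = 3 each). Since these are bulk samples, fewer cells with a transcript and less of it per cell cannot be told apart.

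**Figure D1:**
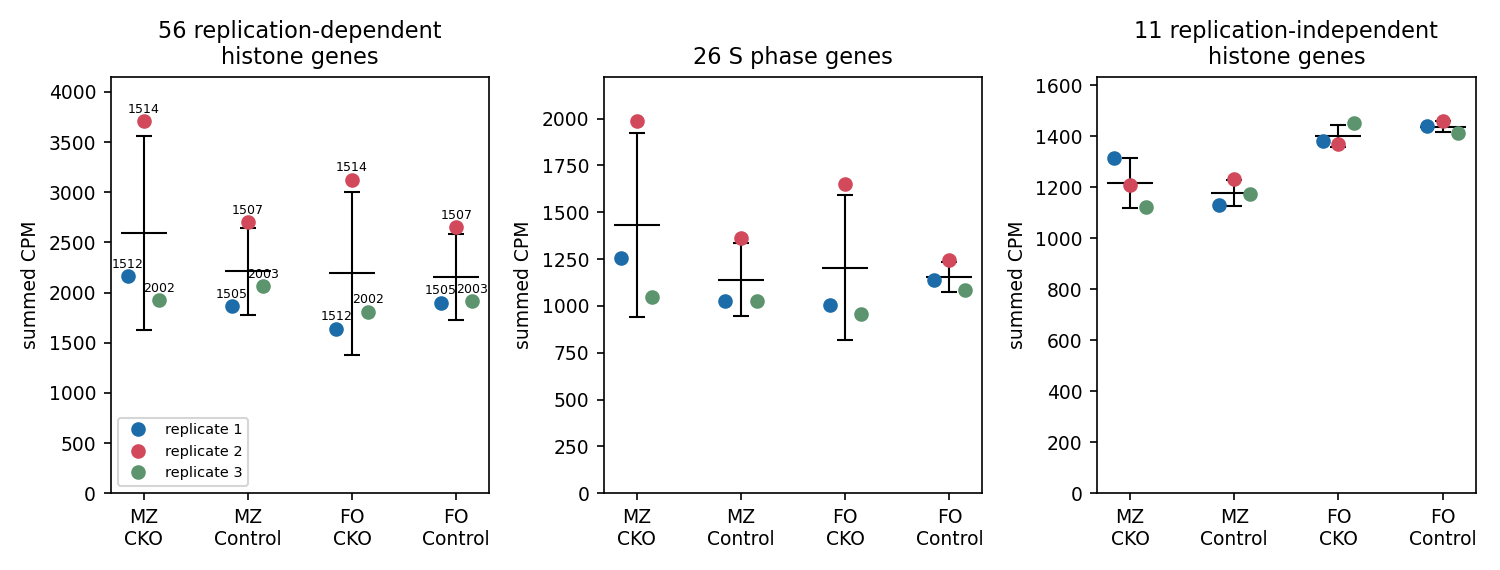
Summed CPM of the 56 replication-dependent histone genes, 26 S phase genes and 11 replication-independent histone genes in each library, by group, with mean and SD (n = 3) as black bars and replicate number as colour. The S phase list also holds Mki67, Top2a, Cdk1, Ccnb1 and Birc5, which mark cycling or dividing cells. In the first panel each point carries its mouse number. Mouse 1514 has the highest level of the first 2 sums in both subsets (3705 and 3126 CPM for the replication-dependent genes), while the replication-independent genes run between 1121 and 1458 CPM.

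Mice 1514 and 1507 carried the highest histone levels. Within the MZ libraries 48 members had their highest value in mouse 1514 and 5 in mouse 1507, and within the FO libraries the counts were 47 and 8. Both mice together held the top 2 values for 46 members in MZ and 49 in FO. Mouse 1514 is a CKO mouse and mouse 1507 a control. The S phase list, which also holds markers of cycling and dividing cells, was also highest in mouse 1514. The other mice had 955 to 1363 CPM, against 1984 CPM in the MZ and 1651 CPM in the FO library of mouse 1514. Neutrophil markers were highest there too, at 244 CPM in the MZ and 401 CPM in the FO library, against 46.7 to 194 CPM in all libraries of the other mice. Erythroid markers summed to 315 and 374 CPM in mouse 1514 and 218 and 264 CPM in mouse 1507 (MZ and FO library). In mouse 1505 they were 121 and 181 CPM, and in mouse 1512 they were 52.0 and 65.8 CPM. In mice 2002 and 2003 they were 7.64 to 23.0 CPM. Whether cycling or other cells in these preparations raise the histone level was not tested.

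**Figure D2:**
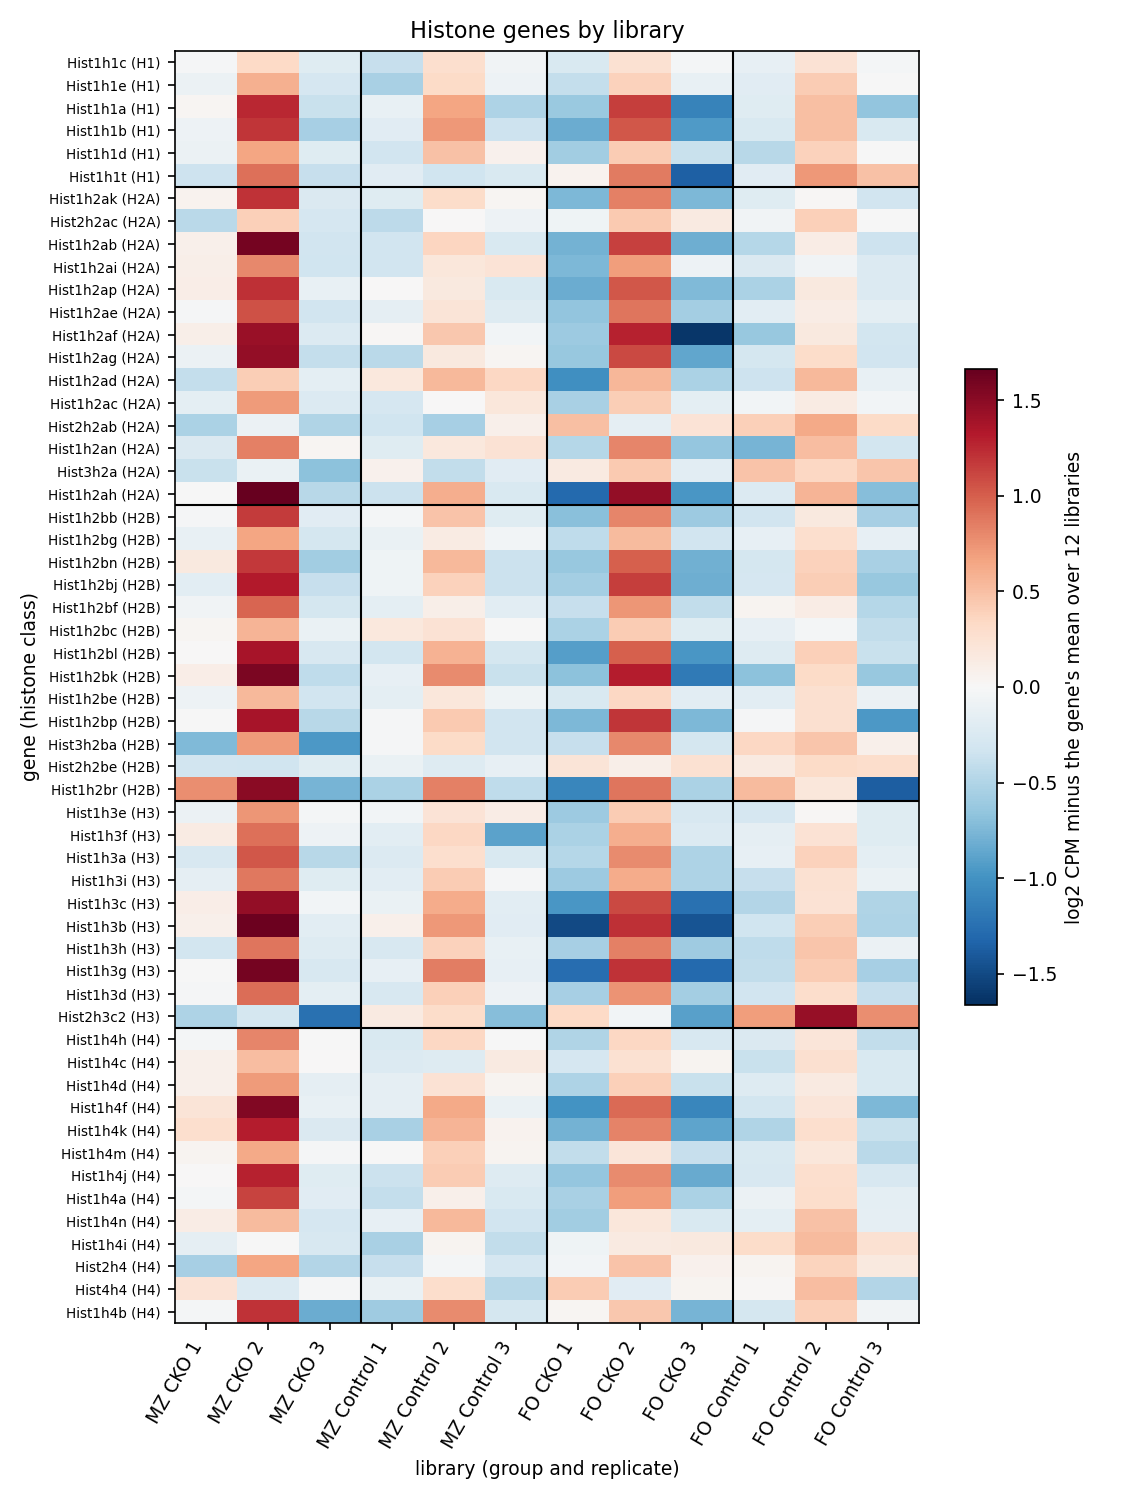
Level of each of the 56 members (rows, by class and then by mean RPKM) in each of the 12 libraries (columns), as log2 CPM minus the gene's own mean. The second column of each group is red for most Hist1 genes. Hist2h2be, Hist2h2ab, Hist2h3c2, Hist3h2a and Hist1h4i are lower in the MZ Control than in the FO Control columns.

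Levels between genes were compared per kilobase of exon (RPKM), as the mean of the 12 libraries. Among H4 genes, which encode the same protein, Hist1h4h was highest with 263 RPKM, then Hist1h4c with 197 and Hist1h4d with 160. The H1 genes were led by Hist1h1c (H1.2) with 241 RPKM, then Hist1h1e (H1.4) with 83.0 and Hist1h1a (H1.1) with 73.5. The H3 genes were led by Hist1h3e with 146 RPKM, Hist1h3f with 62.4 and Hist1h3a with 60.1, and the H2B genes by Hist1h2bb with 105, Hist1h2bg with 74.2 and Hist1h2bn with 72.3. The H2A genes were listed much lower, with 34.8 RPKM for Hist1h2ak, 23.8 for Hist2h2ac and 20.3 for Hist1h2ab. All 14 H2A members overlap exons of another gene listed in the counts, mostly annotated miRNA genes, and 3 members of other classes do so. The counter leaves out reads that hit 2 genes, so these levels may be too low by an amount that was not tested. In addition, 27 members share over 50% of their 50-base windows with another gene, and reads that fit several places were not given to a gene. The order within a class also rests on the annotated length. Hist1h1d had 51463 counts over 7425 bases, against 26276 counts over 741 bases for Hist1h1a. Hist1h2be had 42837 counts over 4446 bases, against 25585 counts over 508 bases for Hist1h2bb. Differences in level between members are therefore uncertain, including the 5 genes at 0 counts with over 50% of their windows shared.

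In control mice, MZ cells were set against FO cells to ask which histone genes mark a subset. Of 55 members tested, 1 was called higher and 6 lower in MZ (edgeR quasi-likelihood test, Benjamini-Hochberg adjusted over all genes), when 14.9% of all genes were called higher and 13% lower. The 6 lower members include 4 of the 5 Hist2 genes, Hist3h2a and Hist1h4i. Groups did not overlap for 1 higher and 7 lower members, against 22.2% and 20.1% of all genes. Paired by mouse, which the labels allow, 13 were called higher and 9 lower, when 22.4% and 21.3% of all genes were called. That is 23.6% and 16.4% of the members, close to the shares of all genes. The median log2 difference of the members in the paired fit was 0.07, against 0.01 for all genes.

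Hist2h2be, an H2B gene whose annotated transcript runs 2192 bases past the stop codon and carries AATAAA, had 14.5, 13.5 and 14.2 CPM in MZ Control against 17.4, 19.6 and 19.2 CPM in FO Control. Each MZ library was lower than each FO library, with a log2 difference of -0.42 (SE 0.0942, adjusted p = 0.00631). The H4 gene Hist1h4i (chr13:22040636-22041362) had 15.6, 23.6 and 17.2 CPM in MZ Control against 28.1, 32.7 and 27.1 CPM in FO Control. Again the groups were separate, and the log2 difference was -0.64 (SE 0.153, adjusted p = 0.0141). Hist2h4 (chr3:96261682-96263311), which has the same stem-loop as Hist1h4i, had 36.8, 46.8 and 39.6 CPM in MZ Control against 49.4, 61.8 and 53.4 CPM in FO Control, a log2 difference of -0.42 (adjusted p = 0.0155). The H2A gene Hist3h2a had 5.80, 4.15 and 4.85 CPM in MZ Control against 7.71, 7.01 and 7.63 CPM in FO Control, a log2 difference of -0.60 (adjusted p = 0.0144). Hist3h2a overlaps exons of a protein-coding gene, and the kit does not mark strand, so reads of both cannot be told apart.

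The remaining calls were weaker. Hist2h3c2, an H3 gene with only 437 counts in all libraries, had 0.866, 0.970 and 0.479 CPM in MZ Control against 1.27, 2.13 and 1.34 CPM in FO Control (log2 -1.02, adjusted p = 0.0303). Hist2h2ab, an H2A gene that overlaps an antisense gene, had 0.997, 0.857 and 1.33 CPM in MZ Control against 1.64, 1.94 and 1.56 CPM in FO Control (log2 -0.70, adjusted p = 0.0488). The one member called higher was the H2B gene Hist1h2bc, with 46.6, 48.97 and 41.3 CPM in MZ Control against 37.6, 40.6 and 31.2 CPM in FO Control (log2 0.32, adjusted p = 0.0367). Its libraries were separate by a narrow margin. The count of 7 fell to 4 without MZ Control replicate 1 and to 3 without MZ Control replicate 3. Genes called in all were then 3687 of 18209 and 3585 of 18273, against 4977 of 17830 with all libraries. In the paired fit all 7 were called, with adjusted p of 9.97e-13 for Hist1h4i, 5.05e-09 for Hist2h4, 8.16e-06 for Hist1h2bc, 1.54e-05 for Hist3h2a, 2.37e-05 for Hist2h2be, 0.000183 for Hist2h3c2 and 0.00637 for Hist2h2ab. The paired call of Hist2h2ab was lost without mouse 1505 or mouse 1507 (adjusted p = 0.0707 and 0.214).

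In CKO mice, without pairing, 1 of 56 members was called in MZ against FO, the lower Hist2h2be, when 10.5% of all genes were called higher and 7.78% lower. Hist2h2be had 12.5, 12.5 and 13.6 CPM in MZ CKO against 18.3, 16.7 and 18.7 CPM in FO CKO, a log2 difference of -0.47 (SE 0.104, adjusted p = 0.0132). The call was lost without FO CKO replicate 1 or 3 (adjusted p = 0.0652 and 0.0602). Each MZ library was lower than each FO library, as in the controls. Groups did not overlap for 0 higher and 1 lower member, against 18.6% and 17.9% of all genes. For most other members the value in mouse 1514 lay far above both other mice in either subset, so that the spread within a group exceeded the difference between groups.

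Paired by mouse, 32 members were called higher and 2 lower in MZ CKO than in FO CKO, when 19.2% of all genes were called higher and 16.6% lower. The members' shares were 57.1% and 3.57%. The called members comprise 3 of 6 H1 genes, 6 of 14 H2A genes, 8 of 13 H2B genes, 6 of 10 H3 genes and 9 of 13 H4 genes called higher, and Hist2h2be and Hist3h2a called lower. All 32 that were higher lie in the Hist1 cluster, and none of the 7 Hist2 and Hist3 members was among them. The median log2 difference of the members was 0.35, against -0.01 for all genes. Leaving out 1 mouse at a time left 28 to 34 members called, when 5010 to 5760 of 17848 to 18014 genes were called.

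Hist1h4f (chr13:23551258-23551648), an H4 gene, had 43.4, 109 and 34.5 CPM in MZ CKO against 18.8, 72.2 and 17.6 CPM in FO CKO, in the order of mice 1512, 1514 and 2002. The MZ value was the higher one in each mouse although the groups overlapped. The paired log2 difference was 0.91 (SE 0.0962, adjusted p = 1.22e-06), and in controls, with 33.8, 58.1 and 34.7 CPM in MZ against 30.3, 43.2 and 22.4 CPM in FO, it was 0.40 (SE 0.0694, adjusted p = 8.13e-07). Hist1h4j, the H4 gene with the GGTCCT stem, had 28.5, 69.2 and 24.7 CPM in MZ CKO against 18.3, 49.2 and 15.96 CPM in FO CKO. It too was higher in MZ in each CKO mouse, with a paired log2 difference of 0.59 (SE 0.0766, adjusted p = 6.62e-07). In controls it had 22.2, 38.3 and 24.5 CPM in MZ against 23.8, 34.6 and 23.6 CPM in FO, a log2 difference of 0.04 (adjusted p = 0.712).

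Hist1h2bb, the highest H2B gene per length, had 48.4, 111 and 43.3 CPM in MZ CKO against 30.4, 86.6 and 32.4 CPM in FO CKO. Its paired log2 difference was 0.49 in CKO mice (adjusted p = 5.9e-06) and 0.31 in controls (adjusted p = 8.71e-06). Hist1h4k and Hist1h4h, also H4 genes, were higher by 0.73 and 0.41 in CKO mice (adjusted p = 3.61e-06 and 1.88e-05). The H3 gene Hist1h3b had the largest paired value of any member, 1.02, without passing the test (adjusted p = 0.0929). It had 16.1, 47.2 and 13.6 CPM in MZ CKO against 5.41, 35.4 and 5.66 CPM in FO CKO, so the ratio was larger in the 2 mice with low levels. By contrast the linker histone Hist1h1c, the member with the most counts, differed by log2 0.06 in CKO mice and -0.07 in controls, and neither passed.

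The lists of called members overlapped between genotypes. In the paired fits 12 members were called higher in both, which is 37.5% of the CKO list and 92.3% of the Control list, and the Control list held 1 further member, Hist1h3b. Both members called lower in CKO mice, Hist2h2be and Hist3h2a, were among the 9 called lower in controls. Hist1h4a was called in opposite directions, higher in CKO mice (log2 0.44, adjusted p = 0.000176) and lower in controls (log2 -0.20, adjusted p = 0.0344). Its levels were 19.8, 44.0 and 17.7 CPM in MZ CKO against 13.9, 32.6 and 14.1 CPM in FO CKO, and 15.4, 21.5 and 16.9 CPM in MZ Control against 19.0, 24.8 and 18.1 CPM in FO Control.

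**Figure D3:**
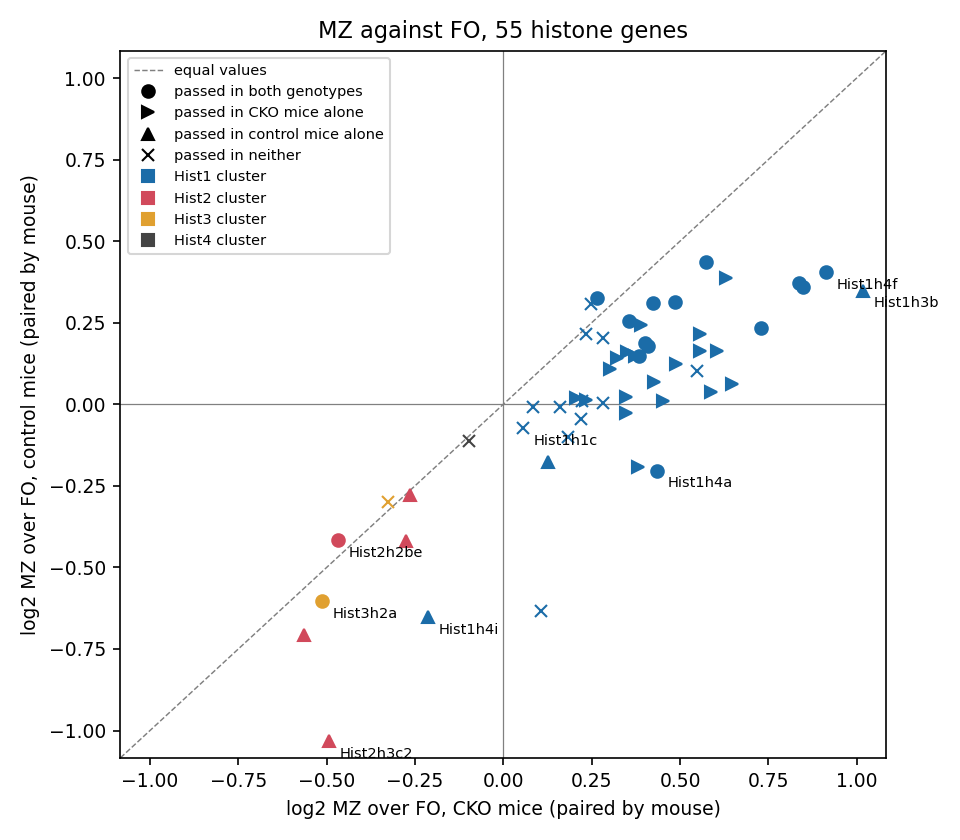
Paired log2 difference of MZ over FO in CKO mice (x axis) and control mice (y axis) for the 55 members tested in both, by gene cluster (colour) and by which paired test was passed at adjusted p under 0.05 (shape). Hist1 genes lie mostly right of 0 and below the line of equal values, and all Hist2 and Hist3 genes lie below 0 on both axes.

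Mouse by mouse, 45, 48 and 38 of the 56 members were higher in the MZ than in the FO library in CKO mice 1512, 1514 and 2002, against 29, 34 and 36 in control mice 1505, 1507 and 2003. The median MZ to FO ratio of the members was 1.44, 1.15 and 1.20 in the CKO mice and 1.01, 1.07 and 1.09 in the controls. The 7 Hist2 and Hist3 members went the other way: 7, 5 and 7 of them were lower in MZ in the CKO mice, and 7, 7 and 7 in the controls. The CKO medians lay above all control medians, as a description of 3 mice against 3, and the tests of single genes for this difference follow the genotype results.

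Genotype was compared within each subset to ask whether histone genes change without Zbtb24. In MZ cells none of 56 members was called by edgeR, when 0.0566% of all genes were called higher and 0.0227% lower. None had an unadjusted p under 0.05 by edgeR, against 2.9% of all genes. DESeq2 called 0 members, and 1 had an unadjusted p under 0.05, against 2.56% of all genes. Groups did not overlap for 0 members, against 3.65% and 3.98% of all genes. In FO cells none of 55 was called, when 0.0563% were called higher and 0.0338% lower. Of these 55, 2 had an unadjusted p under 0.05 by edgeR, against 4.03% of all genes. DESeq2 called 0, and 2 had an unadjusted p under 0.05, against 3.31% of all genes. Groups did not overlap for 0 higher and 2 lower members, against 4.44% and 4.88% of all genes. The shares of all genes called are so small that a count of 0 members says little.

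The sign of the members' values depended on which libraries and which fit were used. In MZ cells the median log2 difference of the members was 0.27, against 0.00 for all genes, and 50 of 56 were above 0. Without MZ CKO replicate 2 the median was -0.18 and 7 were above 0. In FO cells the median was 0.04, with 35 of 55 above 0. It was -0.50 with 1 above 0 without FO CKO replicate 2, -0.04 with 23 above 0 without FO Control replicate 1, and -0.03 with 22 of 56 above 0 without FO Control replicate 3. With replicate number as a block it was -0.05, with 20 of 55 above 0, so no direction can be given for the FO median. The 10 neutrophil markers had a median log2 difference of 1.08 in MZ and 0.99 in FO cells, and 0 of 10 were called in either unpaired comparison by edgeR. With replicate number as a block 5 were called higher in MZ and 2 in FO cells. Their part in the histone values was not tested.

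**Figure D4:**
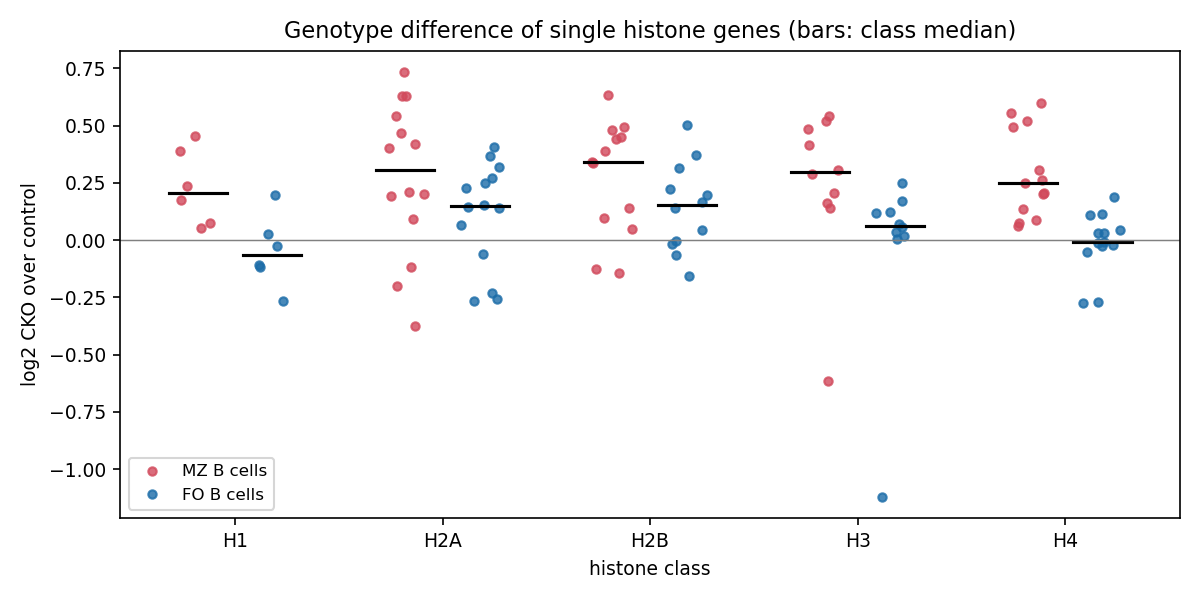
Unpaired log2 difference of CKO over control for each member, by histone class, in MZ (red, left) and FO (blue, right) B cells, with the class median as a bar. None of the points passed the test, and the class medians run from 0.21 to 0.34 in MZ and from -0.07 to 0.16 in FO cells.

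The smallest genotype p in FO cells was that of Hist2h3c2, with 0.983, 0.755 and 0.419 CPM in FO CKO against 1.27, 2.13 and 1.34 CPM in FO Control. All FO CKO libraries were lower than all FO Control libraries, but the log2 difference of -1.12 (SE 0.338) had an adjusted p of 0.9995 by edgeR, and the libraries held 16 to 89 reads of the gene. Hist1h4i had 21.6, 25.3 and 25.5 CPM in FO CKO against 28.1, 32.7 and 27.1 CPM in FO Control, also without overlap (log2 -0.28, adjusted p = 0.9995). Hist3h2a and Hist2h2ab followed, with log2 differences of -0.27 and -0.23. In MZ cells the smallest p was that of Hist1h4c, at 169, 228 and 160 CPM in MZ CKO against 136, 137 and 177 CPM in MZ Control (log2 0.31, unadjusted p = 0.101 by edgeR). Hist2h3c2 (log2 -0.61), Hist1h2ad (-0.37) and Hist1h2ap (0.54) came next, and the groups overlapped for all 3 genes.

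With replicate number as a block, 0 members were called in FO cells, when 0.101% of all genes were called higher and 0.0394% lower. In that fit 3 members had an unadjusted p under 0.05, all with a lower value in CKO, against 5.11% of all genes. In MZ cells, where same-numbered libraries did not deviate together in every pair, the same fit called the H3 gene Hist1h3f higher, when 0.227% of all genes were called higher and 0.0963% lower. Hist1h3f had 81.9, 141 and 70.3 CPM in MZ CKO against 65.8, 95.0 and 40.3 CPM in MZ Control. MZ Control replicate 3 was the lowest of all 12 libraries for this gene. The call was lost without replicate 3 (adjusted p = 0.0812) and without the robust estimates (adjusted p = 0.0724). In this MZ fit 11 of 56 members had an unadjusted p under 0.05, all with a higher value in CKO, against 4.74% of all genes.

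The difference between the MZ and the FO genotype effect was tested over all 12 libraries. Without pairing, edgeR called 0 of 56 members and 0 genes in all, or 0%. By edgeR 0 members had an unadjusted p under 0.05, against 1.28% of all genes. DESeq2 called 0 members, and 1 had an unadjusted p under 0.05, against 0.992% of all genes. With mouse as a block, 2 members were called higher, Hist1h4a (log2 0.63, SE 0.113, adjusted p = 0.0296) and Hist1h4j (log2 0.54, SE 0.102, adjusted p = 0.0482), when 0.0162% of all genes were called higher and 0.00539% lower. An unadjusted p under 0.05 was reached by 18 of 56 members, all with a higher value, against 5.22% of all genes. For both called genes MZ exceeded FO in each CKO mouse, with ratios of 1.43, 1.35 and 1.26 for Hist1h4a and 1.56, 1.41 and 1.55 for Hist1h4j. In control mice the ratios were 0.81, 0.867 and 0.934 for Hist1h4a and 0.933, 1.11 and 1.04 for Hist1h4j. Neither was called without the robust estimates, and the calls were lost on leaving out some single mice.

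Genes that act on histone transcripts and proteins were compared in the same paired fits, in which 19.2% of all genes were called higher and 16.6% lower in CKO mice, and 22.4% higher and 21.3% lower in controls. Among 16 tested genes for histone transcription and 3′ end formation, the paired fit called 2 higher and 0 lower in MZ CKO against FO CKO, and 1 higher and 4 lower in MZ Control against FO Control. Srrt, which links the cap to RNA processing, was higher in both (log2 0.24 in CKO mice and 0.26 in controls). Npat, the activator of histone gene transcription, was lower in controls (log2 -0.17) and differed by 0.01 in CKO mice. Slbp differed by 0.09 in CKO mice and -0.02 in controls, and neither passed. Of 15 histone chaperones, 5 were higher and 3 lower in CKO mice, and 3 were higher and 4 lower in controls, small lists whose control counts lie near those shares. Both subunits of the replication-coupled assembly factor on the list were higher in both genotypes, Chaf1a by log2 0.72 in CKO mice and 0.65 in controls, and Chaf1b by 0.40 in CKO mice and 0.35 in controls. None of these genes was called in the genotype comparisons.

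The S phase list is mixed, as it also holds Mki67, Top2a, Cdk1, Ccnb1 and Birc5, which mark cycling or dividing cells. Of its 26 genes, the paired fit called 17 higher and 2 lower in MZ CKO against FO CKO. In MZ Control against FO Control it called 7 higher and 5 lower. Mki67, Top2a, Cdk1 and Birc5 were among the 17, and Cdk1 and Birc5 among those called in controls. The shares of all genes were 19.2% and 16.6% in CKO mice and 22.4% and 21.3% in controls, so the control counts lie near them. The median paired log2 difference of the list was 0.30 in CKO mice and 0.06 in controls. For the histone members it was 0.35 in CKO mice and 0.07 in controls. E2f1, a regulator of entry into S phase, was higher in both genotypes (log2 1.02 in CKO mice and 0.86 in controls), and the licensing factor Cdt1 was lower in both (log2 -0.33 in CKO mice and -0.49 in controls). Rrm2, a subunit of ribonucleotide reductase, was higher by log2 0.72 in CKO mice and 0.23 in controls. Mki67, a marker of cycling cells, was higher by log2 0.94 in CKO mice. Germinal centre markers, whose cells divide fast, summed to 0.36 to 0.419 of the FO level in the MZ library of every mouse. The part of cycling cells in the histone values was not tested.

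The 11 replication-independent histone genes were compared because they belong to the same protein classes but are mostly made outside S phase as well, although H2afx also has an S phase form and Cenpa is cell cycle regulated. Of 9 tested in the paired fit, 3 were higher and 2 lower in MZ CKO against FO CKO. The shares of all genes were 19.2% and 16.6%. In MZ Control against FO Control 1 was higher and 5 lower, and the shares of all genes were 22.4% and 21.3%. Without pairing, 0 were higher and 1 lower in CKO mice, when 10.5% of all genes were called higher and 7.78% lower. In controls 0 were higher and 4 lower, when 14.9% of all genes were called higher and 13% lower. H3f3a, for H3.3, was the gene called without pairing in both genotypes, with log2 differences of -0.76 in CKO mice and -0.86 in controls. The centromeric H3 variant Cenpa was lower by log2 -0.84 in controls. In CKO mice it was called lower in the paired fit, with the smallest p of this list, and was not called without pairing. In the genotype comparisons none of the 9 was called. The summed level was 1215 ± 97.9 CPM in MZ CKO against 1402 ± 44.2 in FO CKO, and 1179 ± 50.8 CPM in MZ Control against 1438 ± 22.1 in FO Control (SD, n = 3 each). In this sum mouse 1514 was not the highest of its group. Of the 9 genes tested, H2afx, H2afz and Cenpa were each highest in mouse 1514 within both subsets. H2afx had 62.2 CPM in its MZ and 44.6 CPM in its FO library.

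The members varied among themselves in how far they spread over the 12 libraries. The ratio of the highest to the lowest library ran from 1.58 for Hist2h2be to 8.73 for Hist1h3b. Hist1h1c had a ratio of 1.64 and Hist1h2be, an H2B gene with a long annotated end, had 1.81. The 25 members whose annotation runs 150 bases or more past the stop codon had a median ratio of 2.37, against 4.08 for the other 31. Among members with 1000 or more counts the medians were 2.32 (22 genes) and 4.26 (26 genes). Members of similar sequence or of 1 cluster are not independent, and no test was made of this difference.

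**Figure D5:**
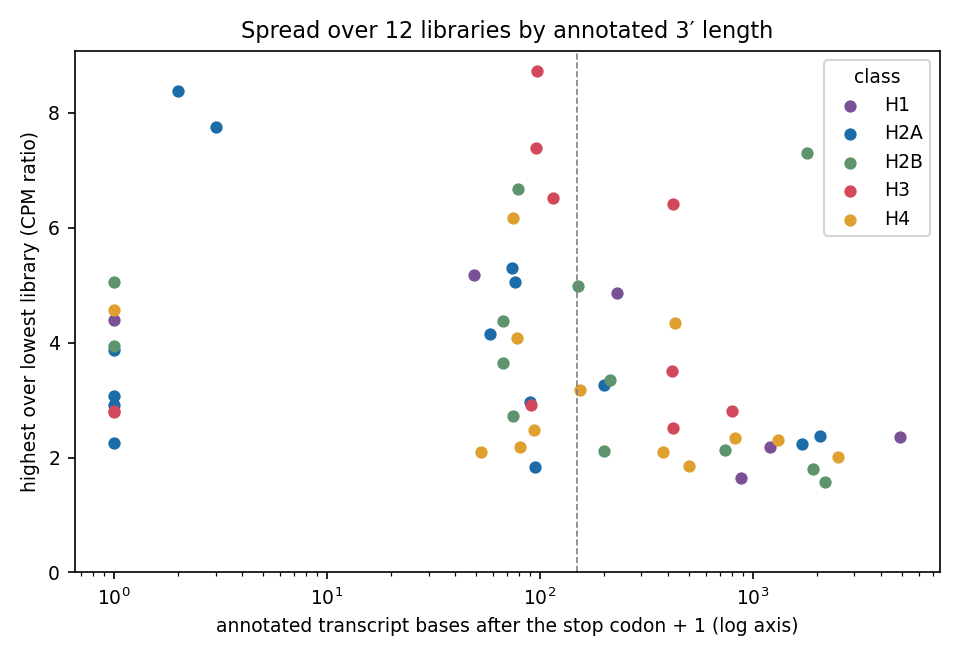
Ratio of the highest to the lowest of 12 libraries (y axis, CPM ratio) against the annotated transcript bases after the stop codon plus 1 (log x axis) for the 56 members, by class. The dashed line marks 150 bases. Right of it the median ratio is 2.37 and left of it 4.08.

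H2A and H2B genes often lie head to head with 1 shared promoter region. There were 10 such pairs of members, with 175 to 301 bases between the starts. The correlation of log2 CPM between the partners over 12 libraries, which share mice and depth, ran from 0.374 for Hist2h2ac and Hist2h2be to 0.969 for Hist1h2ae and Hist1h2bg. In the Hist2 pair the paired log2 difference of MZ over FO was -0.47 for Hist2h2be in CKO mice and -0.42 in controls, both called. For Hist2h2ac it was -0.28 in controls, called lower, and -0.27 in CKO mice, which did not pass. In another pair Hist1h2bk was called higher in both, by 0.57 in CKO mice and 0.44 in controls, and Hist1h2ah had 0.55 in CKO mice and 0.10 in controls without passing.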

How the data were processed

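RNA from MZ and FO B cells of mouse spleen, isolated with a magnetic kit, was sequenced in 12 libraries, made from 0.1 ug of total RNA each with an Illumina TruSeq RNA kit, per the labels' protocols. That kit selects poly(A) RNA and does not mark strand, as background not stated in the labels, so most stem-loop transcripts may be counted in part. The authors deposited raw read counts per Ensembl gene. TopHat, HTSeq and DESeq2 on GRCm38 are named in the submitters' processing notes, and versions and annotation release are not given in the sources used here. Entries that name no gene, including reads fitting several places, held 43.2% to 50.4% of each library's entries and were left out.

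Counts were tested with edgeR 4.0.16 in R 4.3.3 (filterByExpr, TMM, robust quasi-likelihood F test, two-sided), with Benjamini-Hochberg adjustment over all genes tested and a call at an adjusted p under 0.05. Errors (SE) are the log2 difference divided by the square root of F. Depth was 36340116 to 44629250 counts per library. RPKM used merged exon length of Gencode M21. Alternatives were DESeq2 1.42.0, its size factors, no filter, no robust estimates, a replicate block and leaving out libraries. In MZ against FO the block is the mouse number of the labels, and the deviations of paired libraries correlated with r from 0.547 to 0.777. In the genotype comparisons same-numbered libraries come from different mice. Their deviations correlated with r of 0.135, 0.398 and 0.379 in FO and -0.108, 0.429 and 0.41 in MZ. Libraries with different numbers were not compared, so no pairing is shown. The block is given in both subsets as an alternative fit. Scripts were tested on simulated data. The libraries of a group are separate mice by their numbers.

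The members and gene lists were chosen with earlier results of these data known. Named members are the 3 highest per length in each class, those called without pairing, the 4 with the smallest p in each genotype comparison, and those next to the count threshold. Members named from the paired fits, the spread and the head-to-head pairs were chosen after their values were seen, as were the genes named from other lists. Gene symbols of 2 genes of the 3′ end list and 1 erythroid marker were not matched.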

Additional observations from a re-analysis of the deposited data

Results flagged for a closer look

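Both members whose genotype effect differed between the subsets when the mouse was a block stand out, since no member and no gene was called without it. Hist1h4a had a log2 difference of 0.63 (MZ effect minus FO effect, adjusted p = 0.0296 by edgeR) and Hist1h4j one of 0.54 (adjusted p = 0.0482). The difference is made of a higher MZ than FO level in 3 of 3 CKO mice for both genes, and of a lower one in 3 of 3 control mice for Hist1h4a and 1 of 3 for Hist1h4j. Leaving out 1 mouse at a time kept Hist1h4a between 0.59 and 0.68 with adjusted p from 0.00413 to 0.635, and Hist1h4j between 0.49 and 0.61 with adjusted p from 0.019 to 1. The highest adjusted p of both came without mouse 1505. Without the robust estimates the adjusted p was 0.0787 for Hist1h4a and 0.13 for Hist1h4j.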

How the results depend on the processing

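There were 3 mice a group, and members with few reads, such as Hist2h3c2, also carry counting error. Without MZ CKO replicate 2 the unpaired MZ over FO difference in CKO mice was log2 -0.11 for Hist1h2bb and -0.062 for Hist1h4j, and the difference of genotype effects of Hist1h4j was -0.12. Over all alternatives those 3 values reached 1.11, 1.26 and 1.21. Hist2h2ab in FO cells (CKO over control) was 0.012 without replicate 2 in the blocked fit and 0.018 without replicate 2 of each group. In FO cells 1 member was called between genotypes with no filter on low counts, when 140 of 30333 genes were called. With the block and without replicate 2 it was 2 members, when 76 of 17891 genes were called. In MZ cells 1 was called with the replicate block, Hist1h3f (log2 0.56, adjusted p = 0.00342), when 57 of 17658 genes were called. The block without robust estimates called 0 members and 25 of 17658 genes. With the block and without replicate 1, 2 or 3 it was 1, 1 and 7 members. Genes called in those fits were 57 of 17794, 109 of 17629 and 183 of 17944. The adjusted p of Hist1h3f was 0.0812 without replicate 3. Same-numbered CKO and control libraries share no mouse in either subset, so the block is not a pairing. In MZ their deviations correlated with r of -0.108, 0.429 and 0.41. For MZ Control against FO Control the paired fit called 22 members, 21 without robust estimates, and 17, 18 and 20 without mouse 1505, 1507 or 2003. Genes called in all were 7805 and 7626 of 17830, then 5454 of 18071, 6651 of 17909 and 7126 of 18033. Unpaired, leaving out 1 library gave 3 to 7 members, when 3585 to 5012 of 18181 to 18273 genes were called. For MZ CKO against FO CKO the paired fit called 34, 35 without robust estimates, and 28, 33 and 34 without mouse 1512, 1514 or 2002. Genes called in all were 6333 and 6177 of 17712, then 5760 of 17870, 5010 of 17848 and 5273 of 18014. Unpaired, leaving out 1 library gave 0 to 2 members, when 1898 to 2884 of 18106 to 18245 genes were called. Leaving out replicate 2 of both groups gave 17 members, when 2649 of 17848 genes were called. For the difference of genotype effects the block by mouse called 2 members, when 4 of 18546 genes were called. It called 5, 4, 1 and 1 without CKO mouse 1514 or 2002 or control mouse 1507 or 2003. Genes called in those fits were 14 of 18810, 31 of 18862, 17 of 18785 and 4 of 18834. Without mouse 1512 or 1505 it called 0 members, when 4 of 18787 and 2 of 18818 genes were called. The cause of these moves was not tested. Of the alternatives of single-gene values, 5 reversed, 382 kept direction and side of the threshold, 69 passed it only under the alternative, and 26 lost it.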
